A study of Caenorhabditis elegans with 12 samples.

Results

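The mbl-1(tm1563) mutant of Caenorhabditis elegans was compared with the ME line over the mature miRNAs of whole L4 larvae. The ME line was taken as 1 of a pair of edited strains that express only the short or only the long MBL-1 protein. All features of the deposited count table with a miRBase name were taken as members, 370 of 471, and the 101 predicted miRNAs without such a name were left out of the description but kept in the fit. The comparison used 6 of the 12 small RNA libraries, 3 per line, and the 3 libraries each of wild type (N2) and of the SH line, the other isoform strain, are shown for their levels. All 4 genotypes were grown on OP50 at 20 °C from bleach-synchronized L1 larvae, and RNA was taken from whole animals, so that a change in cell number and a change in miRNA per cell cannot be told apart.

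The tm1563 strain carries a mutant allele of mbl-1, described in the series title as a deletion. The gene lies on the plus strand at chrX:16978608-17010302 (WBcel235). The ME and SH lines carry edited alleles of the same gene, titled syb4318 and syb4345. No label ties either allele to a column code, to ME or SH, or to an isoform length, and none is assigned here. The tm1563 columns were matched because they carry the gene name with no line code. The columns coded CR_MED and CR_SH were taken as the ME and SH isoform lines, which is an inference too. The number of independent isolates behind each strain is not given in the sources used here, and the mbl-1 transcript is not measured by small RNA sequencing, so the libraries offer no check of these labels. The 3 libraries of a genotype are biological replicates in the series' design text, which does not say whether they came from separate cultures or days, so p-values measure the spread between these libraries.

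Muscleblind proteins are zinc-finger RNA-binding proteins that regulate alternative splicing, mainly in muscle and neurons, and in human cells the homologue MBNL1 also binds the precursor of miR-1. A miRNA precursor is a hairpin that Dicer cuts into a duplex of its 5p and 3p arms. An Argonaute protein usually keeps 1 arm, the major arm, which guides silencing, while the other, minor arm is degraded. Each arm was counted as a feature of its own.

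The 6 libraries of tm1563 and ME held between 6946205 and 10764528 counts, and 305 to 314 of the 370 members were detected in each. Levels are given in CPM, the count scaled to a common library size after TMM correction for composition. The floor used here, 3 counts, corresponds to 0.279 to 0.432 CPM before that correction. ME library 1 stood apart from the other 5, with 28.8% of its counts from miR-70-3p and 12.5% from miR-1-3p, against 15.9% to 20.2% and 15.5% to 23.3% there. Wild-type library 1, which enters the shared estimate of spread, had 326 detected features against 365 to 400 in the other 11 libraries. The late larval miRNAs let-7-5p, miR-48-5p, miR-241-5p and lin-4-5p, 4 of 4 detected, summed to 49688 to 67606 CPM in tm1563 and 53091 to 60802 CPM in the ME line. The 3p arms of the embryonic mir-35 family, 8 of 8 tested, summed to 1675 to 1957 CPM and 1431 to 1878 CPM. Both sums overlapped between the lines, and the muscle miRNA miR-1-3p, at 131183 to 211156 and 125350 to 242942 CPM, did so too.

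Of the 370 members, 235 were abundant enough to test. The other 135 never exceeded 19 counts in any of the 6 libraries, and 12 of these had none there. Relative to the ME line, 14 miRNAs were higher in tm1563 and 10 were lower (edgeR quasi-likelihood test, Benjamini-Hochberg adjusted p under 0.05 over 250 features). Higher calls made up 5.6% and lower calls 4% of the features tested, 9.6% together, and all 24 were members. Without wild-type library 1 there were 17 higher and 16 lower calls, which included all 24. The higher miRNAs were mostly major arms, led by miR-251, miR-245-3p and miR-790-5p at 5-fold or more, whereas 7 of the 10 lower ones were minor arms. The median log2 fold change over all features was -0.04, and the 3 libraries of the lines did not overlap for 34% of the features, 36 with tm1563 above and 49 with tm1563 below.

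Many calls were lost when a single library was left out, which also leaves fewer libraries in that line. How much of the loss comes from the smaller number of libraries was not tested. With 1 of the 6 libraries left out in turn, edgeR called 15, 14 or 13 features without tm1563 library 1, 2 or 3, and 22, 35 or 22 without ME library 1, 2 or 3. Of the 24 calls, 15, 14 and 13 were made again without those tm1563 libraries and 18, 17 and 19 without those of the ME line. Kept in all 6 fits were 8 calls, namely miR-245-3p, miR-251, miR-252-5p, miR-76-3p, miR-790-5p, miR-790-3p and miR-356b-3p among the higher and miR-237-3p among the lower. With library totals in place of TMM 14 of the 24 were called again, and miR-90-3p, miR-786-3p, miR-1821-3p, miR-61-5p, miR-240-5p, miR-788-3p, miR-5592-3p and the 5p arms of mir-80, mir-81 and mir-82 were not, at adjusted p values of 0.0552 to 0.107. The last values inside the threshold were those of miR-90-3p, miR-786-3p and miR-80-5p, at adjusted p values of 0.0304, 0.0451 and 0.0451, and the first outside were miR-79-5p and miR-4813-5p at 0.0507 and miR-83-5p at 0.0532.

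**Figure D1:**
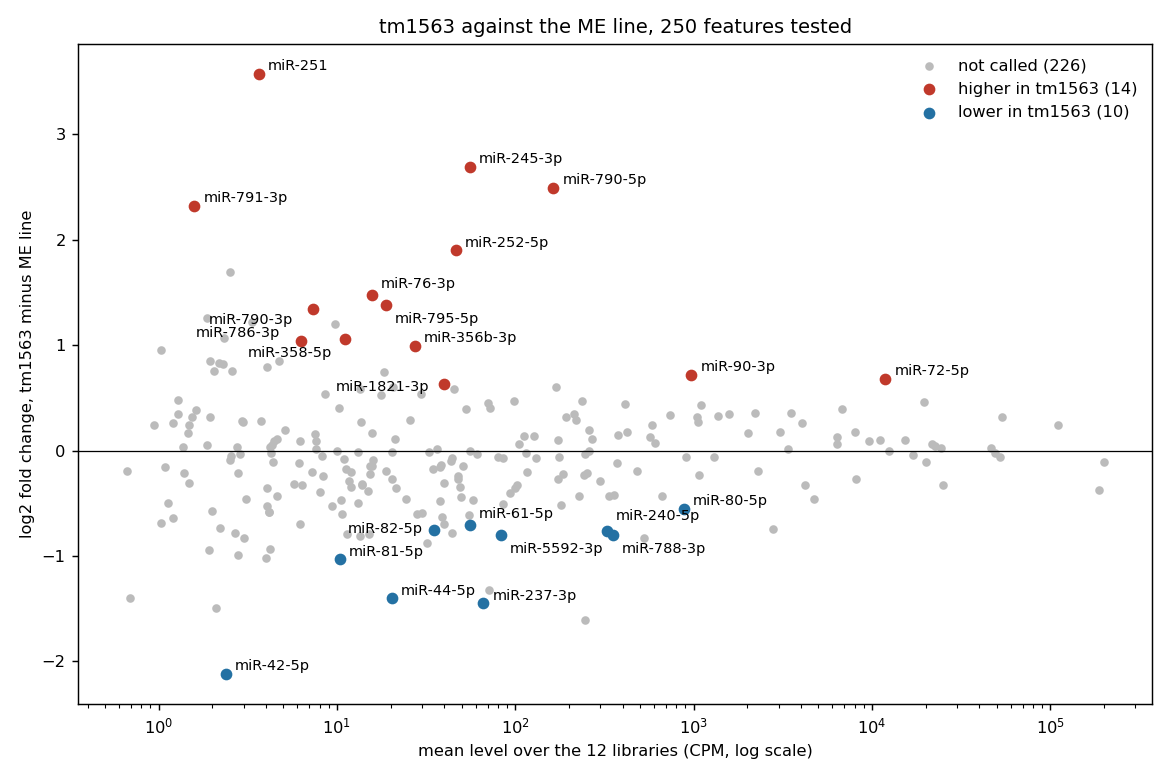
Log2 fold change of tm1563 against the ME line (y) by mean CPM over the 12 libraries (x, log scale), with 1 point per tested feature. The 14 higher calls (red) reach 3.57 and the 10 lower calls (blue) reach -2.12, and among the 41 features at 1000 CPM or more there is 1 call, miR-72-5p.

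Of the 250 features tested at any level 9.6% were called. Most calls lay under 1000 CPM, as did most features tested. Under 10 CPM, on the mean of the 12 libraries, 4 of 82 features were higher and 1 was lower. Between 10 and 100 CPM 7 of 82 were higher and 6 lower, and between 100 and 1000 CPM 2 of 45 were higher and 3 lower. The higher ones there included miR-90-3p, just under the bound at a mean of 971 CPM. Above 1000 CPM 1 of 41 was higher and 0 were lower, while 6 had an unadjusted p under 0.05, against 67 of all 250 features. The abundant miRNAs thus held log2 fold changes between -0.74 and 0.68.

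The smallest adjusted p was that of miR-245-3p, whose precursor gene lies outside protein-coding genes at chrI:7887371-7887467. Its level was 101, 128 and 135 CPM in tm1563 and 15.5, 18.8 and 22.3 CPM in the ME line. Every tm1563 library was more than 4 times the highest ME library. The difference was 6.44-fold (log2 fold change 2.69, SE 0.22, edgeR adjusted p = 4.28e-07). Wild type, at 28.5 to 38.2 CPM, and the SH line, at 43.4 to 60.9 CPM, lay between the lines without touching either.

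The sequence family of miR-228, miR-790 and miR-791, related to the vertebrate miR-183 family of sensory organs, held 2 higher members, miR-790-5p and miR-791-3p, of which the latter was tested only because of its level in tm1563. In tm1563 miR-790-5p stood at 294, 320 and 327 CPM and in the ME line at 42.5, 53.2 and 72.1 CPM. This was a 5.61-fold difference (log2 fold change 2.49, SE 0.29, edgeR adjusted p = 2.20e-05), and wild type (80.4 to 156 CPM) and the SH line (121 to 224 CPM) again fell in the gap. The minor arm of the same precursor, miR-790-3p, was also higher, at 11.4, 12.6 and 8.80 CPM against 3.85, 4.58 and 4.50 CPM (1.34, SE 0.26, adjusted p = 0.00490). Both arms of the hairpin at chrIV:5566422-5566491 were therefore higher in tm1563.

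The second higher member, miR-791-3p, is known from carbon dioxide-sensing neurons and was scarce here. It was counted 25, 35 and 39 times in the tm1563 libraries and 9, 4 and 4 times in those of the ME line. In CPM these were 2.54, 4.38 and 4.46 against 1.12, 0.495 and 0.599 (log2 fold change 2.32, 95% interval 0.99 to 3.65, edgeR adjusted p = 0.0244). The call was lost without tm1563 library 2 or 3 or ME library 2 or 3, at adjusted p values of 0.0675, 0.0816, 0.0925 and 0.0614. Wild type ranged from 0.406 to 2.69 CPM and overlapped both lines. Of the libraries that reached the abundance minimum of 1.27 CPM, 3 were of tm1563 and 1 of wild type, so this miRNA entered the test through the line in which it is high and adds nothing to a count over its family. The call was also made with no filter on low counts.

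The third relative, the glial miR-228-5p, was abundant, at 22257 to 29591 CPM in tm1563 and 22378 to 27860 CPM in the ME line. Its log2 fold change of 0.02 had a 95% interval of -0.31 to 0.36. The genes mir-228 and mir-790 lie within 10 kb of each other on the same strand. Of the 5 tested miRNAs listed as neuron-enriched, miR-790-5p was higher and 0 were lower, while 5.6% and 4% of all features were. The higher call of miR-791-3p, also on the list, adds nothing to this count, because its level in tm1563 brought it into the test. The others were miR-234-3p at 0.19 (SE 0.20), miR-124-3p of sensory neurons at 0.27 (SE 0.51) and lsy-6-3p, which sets left-right asymmetry of taste neurons, at 0.75 (SE 0.53).

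Both members of the mir-251 and mir-252 family were higher in tm1563. The scarce miR-251, from chrX:11004728-11004824, was counted 47, 65 and 96 times in tm1563 and 8, 4 and 3 times in the ME line. These counts correspond to 4.78, 8.13 and 11.0 CPM and to 0.993, 0.495 and 0.450 CPM. The ME libraries were thus close to the floor, and the fitted difference of 11.9-fold (log2 fold change 3.57, SE 0.42, edgeR adjusted p = 2.20e-05) had a wide interval of 2.68 to 4.46 on the log2 scale. Wild type, at 1.95 to 2.84 CPM, and the SH line, at 3.11 to 3.99 CPM, lay in between.

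For miR-252-5p the levels were 50.1, 57.1 and 80.9 CPM in tm1563 and 12.7, 21.7 and 16.0 CPM in the ME line. This 3.73-fold difference had a log2 size of 1.90 (SE 0.25) and an edgeR adjusted p of 8.39e-05. Unlike miR-251, its wild-type libraries (41.0 to 53.2 CPM) and SH libraries (44.7 to 68.1 CPM) overlapped those of tm1563, and the ME libraries were the low ones. The mir-252 precursor lies at chrII:11446863-11446960, antisense within an intron of W02B12.13.

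The ME libraries were also the low ones for miR-76-3p, at 24.6, 19.4 and 19.1 CPM in tm1563 and 5.46, 9.90 and 7.34 CPM in the ME line (log2 fold change 1.47, SE 0.24, edgeR adjusted p = 7.66e-04). Wild type at 17.2 to 20.2 CPM and the SH line at 13.5 to 17.4 CPM both stood above all ME libraries, the SH line being below tm1563 as well. In contrast, for miR-356b-3p the tm1563 libraries were the high ones. They held 33.5, 42.1 and 40.8 CPM, against 17.4, 20.3 and 21.0 CPM in the ME line (0.99, SE 0.21, adjusted p = 0.00702), 19.7 to 27.4 CPM in wild type and 22.6 to 31.5 CPM in the SH line. The mir-356b gene, at chrIII:7860167-7860234, overlaps mir-356a, at chrIII:7860147-7860256, on the opposite strand. Reads of miR-356b-3p may be shared with miR-356a.

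**Figure D2:**
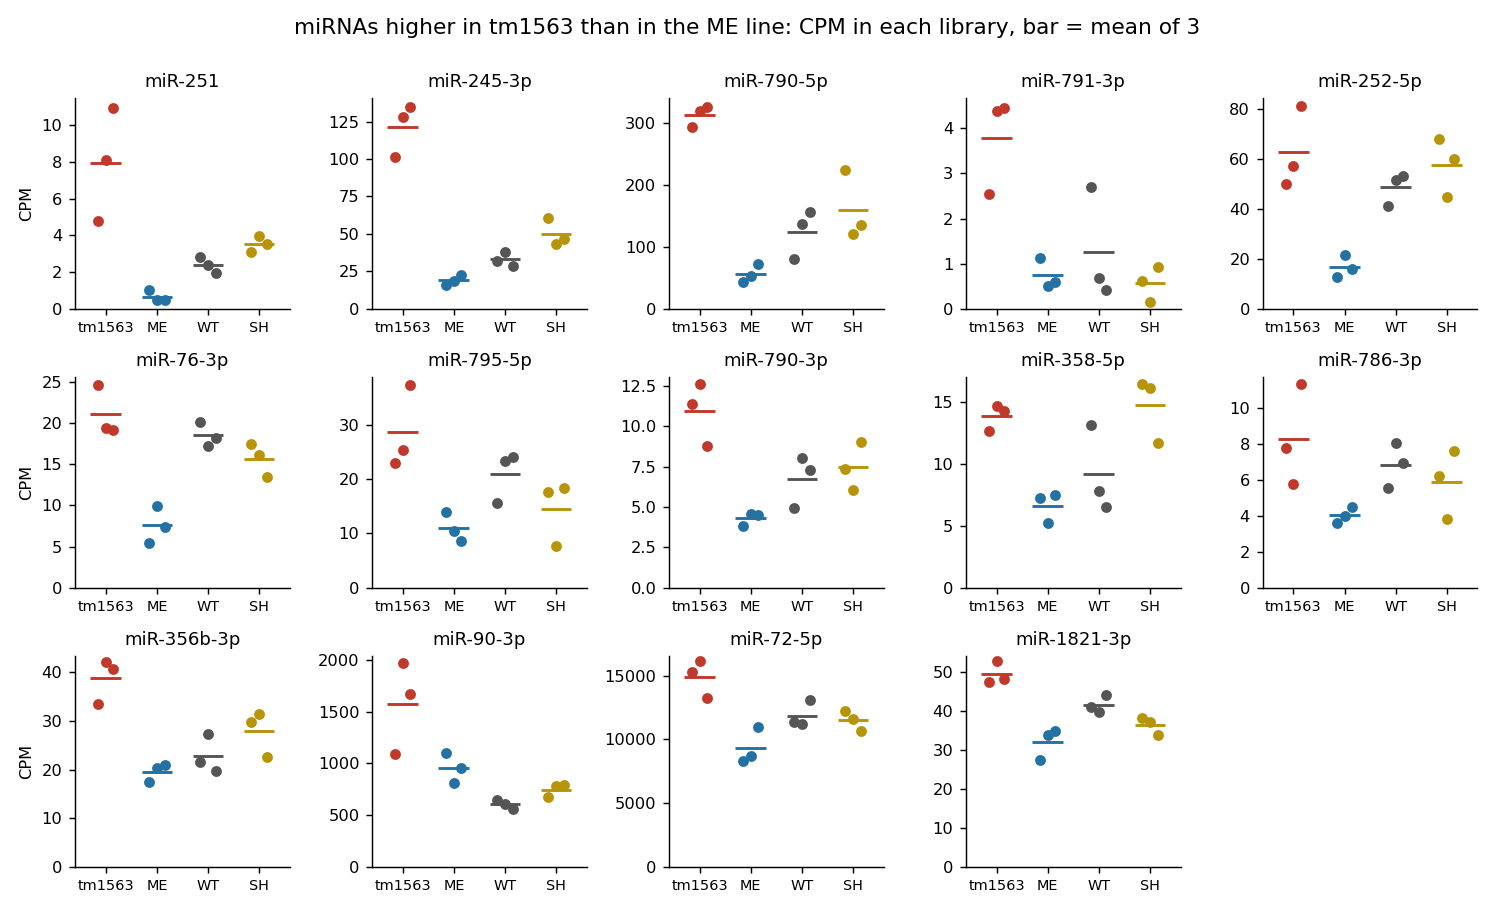
Level in CPM (y, from 0) of the 14 miRNAs higher in tm1563, in each of the 3 libraries of tm1563, the ME line, wild type and the SH line, with bars at the means. The tm1563 and ME libraries overlap for 1 of the 14, miR-90-3p. This is no separate support, because the calls were made on these same libraries, and 34% of all features tested did not overlap. All wild-type and SH libraries lie above those of the ME line for miR-251, miR-245-3p, both arms of mir-790, miR-252-5p and miR-76-3p. Of these, wild type overlaps tm1563 for miR-252-5p and miR-76-3p.

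Each of the remaining higher calls was lost when at least 1 library was left out. A divergent relative of let-7, miR-795-5p, stood at 23.0, 25.4 and 37.3 CPM in tm1563 and 13.9, 10.4 and 8.54 CPM in the ME line (log2 fold change 1.38, SE 0.32, edgeR adjusted p = 0.0144). Among 7 tested let-7 relatives this was the 1 call, and the developmental timing miRNA let-7-5p itself had a log2 fold change of 0.06 (95% interval -0.24 to 0.37). Its level was 7347, 7109 and 6159 CPM in tm1563 and 6089, 6389 and 7229 CPM in the ME line, with overlap. The call of miR-795-5p was lost without tm1563 library 3 or ME library 2, at adjusted p values of up to 0.0679.

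The highest level among the calls was that of miR-72-5p, at 15323, 16143 and 13254 CPM in tm1563 and 8300, 8691 and 11004 CPM in the ME line (log2 fold change 0.68, SE 0.16, edgeR adjusted p = 0.0144). Of its family, miR-73-3p and miR-74-3p were at 0.32 (SE 0.15) and -0.20 (SE 0.18) and did not pass. For miR-90-3p the lines overlapped, at 1088, 1968 and 1674 CPM against 1098, 811 and 959 CPM (0.72, SE 0.20, adjusted p = 0.0304). All wild-type libraries (556 to 649 CPM) and SH libraries (672 to 792 CPM) were below both lines. Its relatives miR-50-5p and miR-62 were at -0.19 and -0.24.

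At lower levels, miR-358-5p averaged 13.8 ± 1.08 CPM in tm1563 and 6.63 ± 1.25 CPM in the ME line (mean ± SD, n = 3 each; log2 fold change 1.06, SE 0.28). The intestinal miRNA miR-786-3p, which times the defecation rhythm, averaged 8.27 ± 2.82 and 4.02 ± 0.450 CPM (1.04, SE 0.31), and miR-1821-3p averaged 49.4 ± 2.90 and 32.0 ± 4.05 CPM (0.63, SE 0.17). These calls by edgeR were kept in 2, 1 and 0 of the 6 fits with a library left out, at adjusted p values of up to 0.120, 0.254 and 0.159. The call of miR-358-5p was kept without tm1563 library 1 or ME library 3, and that of miR-786-3p without tm1563 library 2. For miR-72-5p and miR-90-3p the call was kept in 3 of 6, at adjusted p values of up to 0.106 and 0.200, and it was lost for both without tm1563 library 2 or ME library 2, for miR-72-5p also without ME library 1 and for miR-90-3p also without tm1563 library 3.

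The miRNAs lower in tm1563 were led by minor arms. The most stable was miR-237-3p, the minor arm of the lin-4 paralogue mir-237 at chrX:8154084-8154182. It held 48.1, 43.9 and 32.4 CPM in tm1563 and 151, 63.6 and 125 CPM in the ME line (log2 fold change -1.45, SE 0.29, edgeR adjusted p = 0.00565). Wild type, at 39.2 to 74.0 CPM, overlapped both lines. The major arm miR-237-5p was at -0.33 (95% interval -0.68 to 0.03) and lin-4-5p at 0.33 (-0.30 to 0.95), and neither passed.

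A pair of minor arms came from 1 stretch of chromosome II that also holds mir-43, with mir-42 at chrII:11889811-11889905 and mir-44 at chrII:11890023-11890118, both on the plus strand. For miR-44-5p the levels were 20.5, 15.8 and 11.1 CPM in tm1563 and 59.2, 18.8 and 46.8 CPM in the ME line. Thus 1 ME library overlapped the tm1563 range, and the log2 fold change was -1.40 (SE 0.33, edgeR adjusted p = 0.0144), or -1.21 and not called without tm1563 library 3 (adjusted p = 0.0604). The arm miR-42-5p is the minor arm opposite miR-42-3p, which is the arm listed in the embryonic mir-35 family. For miR-42-5p the counts were 11, 11 and 9 in tm1563 and 76, 16 and 26 in the ME line (-2.12, SE 0.53, edgeR adjusted p = 0.0189).

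Both arms were highest in ME library 1. Without that library the log2 fold change of miR-42-5p was -1.39 (edgeR adjusted p = 0.0967) and that of miR-44-5p -1.13 (adjusted p = 0.0485). The call of miR-42-5p was also lost without tm1563 library 1 or 3, at -2.08 and -2.04. The major arms of these precursors, miR-42-3p at -0.27 (SE 0.27) and miR-44-3p at -0.06 (SE 0.27), did not pass. The latter may include reads of miR-45-3p, which has the same mature sequence.

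The mir-58 family, the worm counterpart of the fly growth regulator bantam, contributed 3 lower minor arms. For miR-81-5p the levels were 5.29, 7.63 and 7.89 CPM in tm1563 and 15.3, 12.9 and 14.2 CPM in the ME line (log2 fold change -1.03, SE 0.27, edgeR adjusted p = 0.0221). For miR-82-5p they were 22.3, 30.1 and 28.8 against 47.3, 43.7 and 45.4 CPM (-0.75, SE 0.18, adjusted p = 0.0144). The precursors lie in introns of gid-2, at chrX:2431072-2431179 and chrX:2435258-2435354, on opposite strands.

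The third, miR-80-5p, was far more abundant, at 839, 674 and 660 CPM against 930, 1011 and 1250 CPM (-0.55, SE 0.17, edgeR adjusted p = 0.0451). In these 3 arms the wild-type libraries were all above those of tm1563 and overlapped those of the ME line, while the SH libraries overlapped tm1563 and were all below the ME line. The 4 tested major arms listed for the family held 0 calls by edgeR, with log2 fold changes from -0.02 to 0.46 and 1 unadjusted p under 0.05. Outside that list, the scarce miR-58c, with a single arm in the table, was at 0.85 (SE 0.36, edgeR adjusted p = 0.134). The call of miR-80-5p was lost with RLE size factors, with no filter on low counts and with only the libraries of these 2 lines, at adjusted p values of 0.0616, 0.0671 and 0.0886, and those of all 3 arms with library totals, at adjusted p values of 0.102 to 0.107. Leaving out tm1563 library 1 cost the calls of miR-82-5p and miR-81-5p, at adjusted p values of 0.0740 and 0.0961. Without tm1563 library 2 those of miR-81-5p and miR-80-5p were lost, at 0.0563 and 0.160, and that of miR-80-5p was also lost without tm1563 library 3 or ME library 3, at 0.180 and 0.155.

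**Figure D3:**
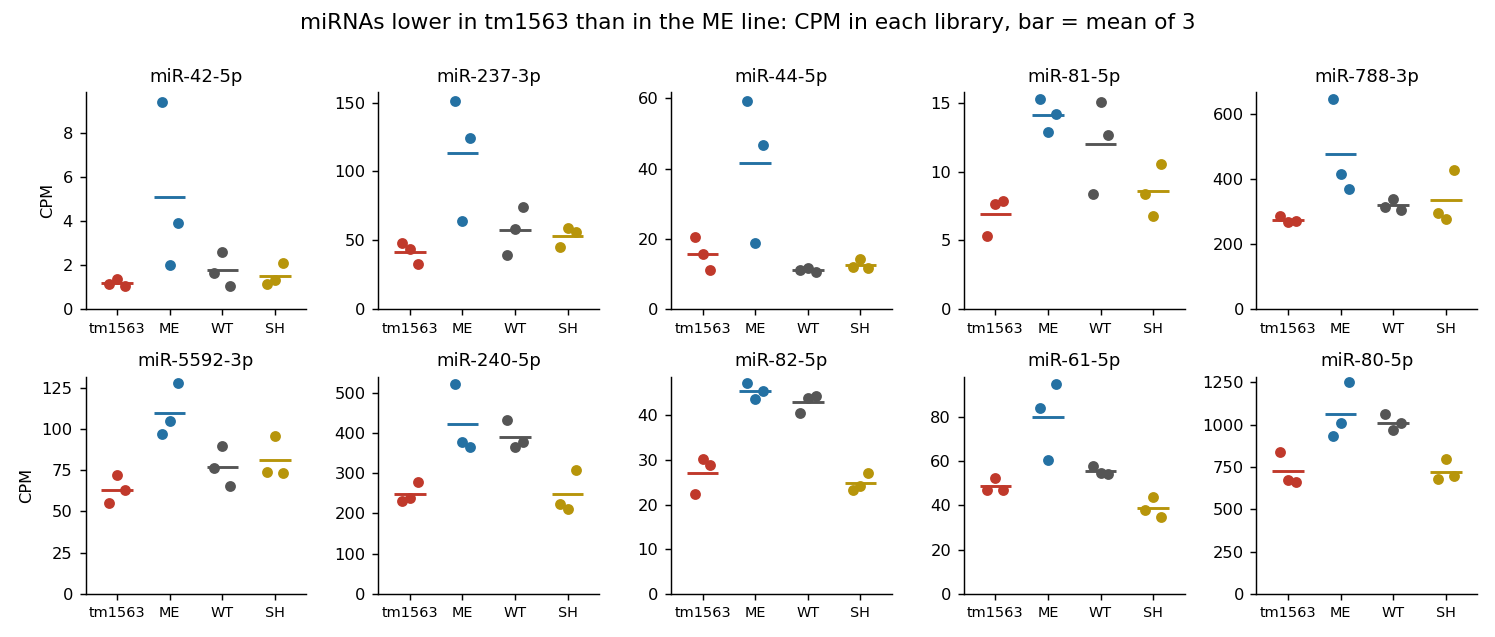
Level in CPM (y, from 0) of the 10 miRNAs lower in tm1563, in each of the 3 libraries of tm1563, the ME line, wild type and the SH line, with bars at the means. ME library 1 (the left blue point) is the highest of all 12 for miR-42-5p, miR-237-3p, miR-44-5p and miR-788-3p, and for miR-82-5p, miR-240-5p and miR-80-5p the SH line lies with tm1563 and wild type with the ME line.

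The other lower calls comprised the minor arm miR-61-5p and 3 major arms. The mir-61 gene is known as a target of Notch signalling in vulval cells, and miR-61-5p stood at 46.9, 52.5 and 47.1 CPM in tm1563 and 84.2, 60.5 and 95.0 CPM in the ME line (log2 fold change -0.71, SE 0.19, edgeR adjusted p = 0.0237). For miR-240-5p the levels were 230, 238 and 278 against 523, 376 and 365 CPM (-0.76, SE 0.19, adjusted p = 0.0198). Its gene and mir-786, the source of the higher miR-786-3p, lie side by side at chrX:7882622-7882718 and chrX:7882751-7882840 on the same strand. The calls from these neighbours thus had opposite signs, and the second arm of mir-240, miR-240-3p, was at -0.51 (SE 0.20).

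For miR-788-3p, from chrX:8485294-8485371, the levels were 286, 266 and 269 CPM in tm1563 and 647, 416 and 369 CPM in the ME line (log2 fold change -0.80, SE 0.21, edgeR adjusted p = 0.0237). Without ME library 1 it was at -0.60 and not called (adjusted p = 0.0759), and it was also lost without each of the tm1563 libraries, at adjusted p values of up to 0.0772. The arm miR-5592-3p averaged 63.2 ± 8.53 and 110.0 ± 15.9 CPM (mean ± SD, n = 3; -0.80, SE 0.19, adjusted p = 0.0144). Its 2 annotated loci overlap on opposite strands in an intron of aakb-1, so that reads from them cannot be told apart. The call of miR-61-5p was kept in 2 of 6 fits with a library left out, that of miR-240-5p in 4 and that of miR-5592-3p in 5, each lost without tm1563 library 1, at adjusted p values of 0.0808, 0.0759 and 0.0693. The call of miR-240-5p was also lost without tm1563 library 2, and that of miR-61-5p without tm1563 library 2 or 3 or ME library 3, at adjusted p values of up to 0.0837.

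Other called miRNAs had neighbours that were called in the other direction or not called. The genes mir-80 and mir-90 lie within 10 kb of each other on the minus strand of chromosome III. The minor arm miR-80-5p was lower, while the major arm miR-90-3p was higher, so that unlike arms are set side by side. Their other arms were not called, the major arm miR-80-3p at -0.02 (SE 0.16) and the minor arm miR-90-5p at -0.08 (SE 0.31). The mir-791 gene has mir-230 within 10 kb, whose arm miR-230-3p was at 0.06 (SE 0.20). Beside mir-795 lies mir-794, whose arm miR-794-5p was at 0.16 (SE 0.22), and beside mir-358 lies mir-357, with miR-357-3p at 0.45 (SE 0.21). By chromosome, 3 of 76 tested members of X were higher and 6 lower, while I held 2 higher of 24, II 2 higher and 2 lower of 45, III 3 and 1 of 30, IV 2 and 0 of 36, and V 2 and 1 of 22. Over all 250 features tested 5.6% were higher and 4% lower, and no chromosome was tested against these shares.

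The balance of the arms was then measured directly. Of the 80 tested minor arms 2 were higher and 7 lower (median log2 fold change -0.32), and of the 130 major arms 11 were higher and 3 lower (median 0.06). The shares over all 250 features were 5.6% higher and 4% lower. In 80 precursors with both arms tested, the log2 ratio of minor to major arm was lower in tm1563 than in the ME line for 60 and higher for 20, with a median difference of -0.35. The median ratio of a library, centred over the 12 libraries, was -0.15, -0.06 and 0.00 in tm1563 and 0.32, 0.20 and 0.245 in the ME line. The lines did not overlap, and the difference of -0.32 had an exact two-sided permutation p of 0.1, the smallest that 3 against 3 allow. Wild type averaged 0.06 ± 0.05 and the SH line -0.17 ± 0.09 (mean ± SD, n = 3 each).

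No single precursor passed the test of its arm ratio. By limma 0 of the 80 precursors, 0%, had an adjusted p under 0.05, while 23 had an unadjusted p under 0.05, 19 with the relatively greater minor arm in the ME line and 4 with it in tm1563. The smallest adjusted p was 0.0618, shared by mir-790, mir-81, mir-246 and mir-82. For mir-81 the log2 ratio was -12.11, -11.46 and -11.25 in tm1563 and -9.94, -10.29 and -10.12 in the ME line, a difference of -1.49 (SE 0.39). Its minor arm was lower, and the major arm miR-81-3p was at 0.46 (SE 0.19). For mir-790 the ratio differed by -1.20 (SE 0.30), with log2 fold changes of 1.34 for the minor and 2.49 for the major arm.

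The ratios of mir-246, and of mir-72 were at -1.09 (SE 0.29) and -0.86 (SE 0.25). Opposite in sign were mir-5592 at 0.73 (SE 0.22) and mir-795 at 0.84 (SE 0.29). Calls of arm ratios depended on the fit. With only the 6 libraries of these lines 10 precursors passed limma's test, with a minimum count of 100 there were 9, with a prior count of 5 there were 4, and without ME library 2 there were 3.

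**Figure D4:**
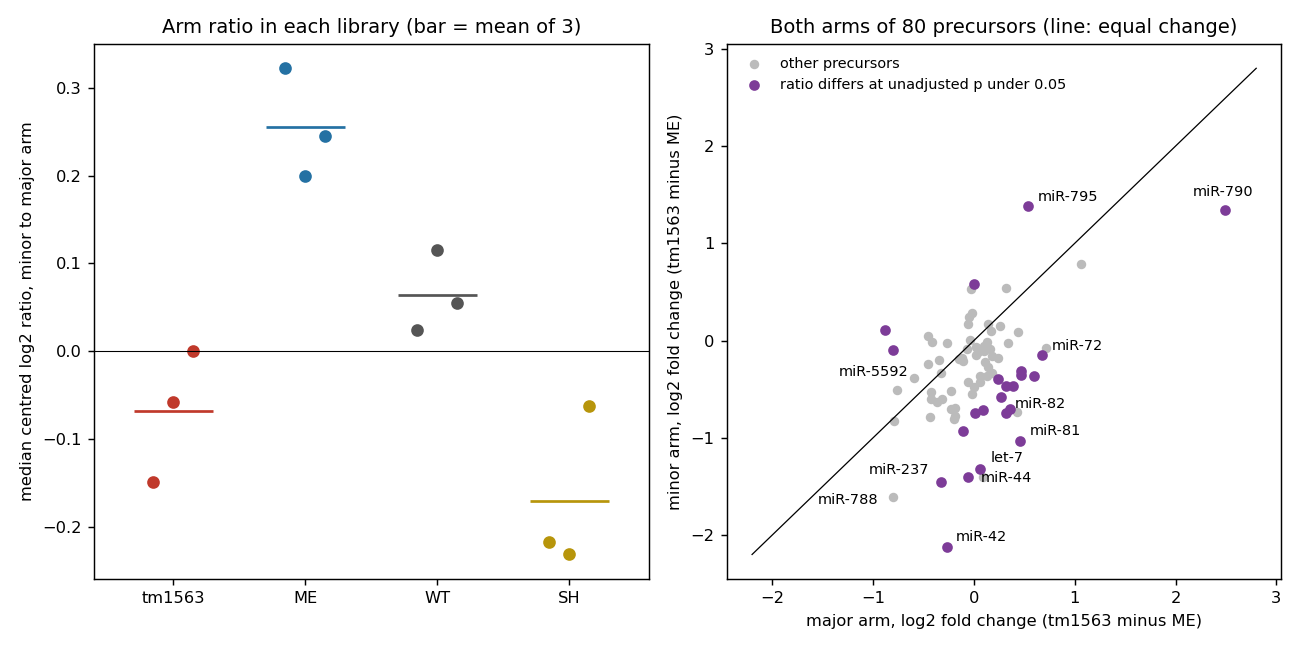
Left, median over 80 precursors of the centred log2 ratio of minor to major arm (y) in each library, with bars at the means; the 3 ME libraries lie at 0.20 to 0.32 and the 3 tm1563 libraries at -0.15 to 0.00. Right, log2 fold change (tm1563 minus ME) of the minor arm (y) against the major arm (x) of each precursor, with 60 of 80 points below the line of equal change.

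Across the families and lists beyond those above, few members passed the test. Over all 250 features tested, 9.6% were called by edgeR and 67 had an unadjusted p under 0.05. Lists this small can hold 0 calls at that share, and whether any list differed from it was not tested. The 3p arms of the mir-35 family (8 tested) had a median log2 fold change of 0.00. Among them miR-41-3p was the minor arm of its precursor and was tested only through its level in the ME line. The mir-51 family (6) had a median of 0.23, the mir-64 family (5) of -0.04, and the mir-44 family (3) of -0.06. All of these families held 0 calls by edgeR, with 1, 1, 0 and 1 members at an unadjusted p under 0.05. The mir-2, mir-75, mir-238, mir-49 and mir-87 families, the mirtrons and the RDE-1-bound miR-243-3p also held 0 calls, with medians from -0.23 to 0.42, and among them the mir-49 family had 1 member and the mir-87 family 2 at an unadjusted p under 0.05. Of the 11 lifespan and stress miRNAs 0 were called and 0 had an unadjusted p under 0.05, with log2 fold changes from -0.44 for miR-83-3p to 0.36 for miR-246-3p. The lifespan miRNA miR-71-5p was at -0.33 (95% interval -0.80 to 0.14) and the muscle miRNA miR-1-3p at -0.11 (-0.64 to 0.42).

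**Figure D5:**
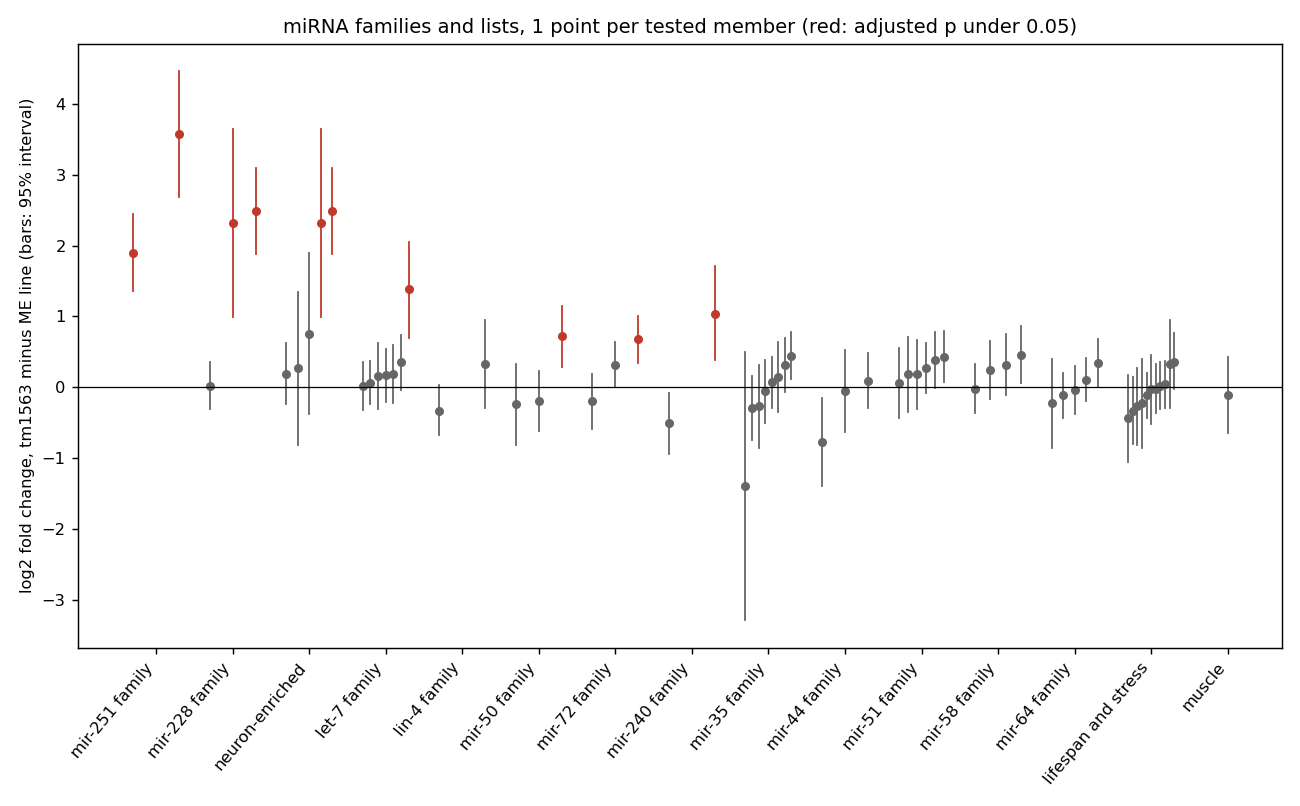
Log2 fold change of tm1563 against the ME line (y) with 95% intervals for the tested members of 15 families and lists (x), red where the adjusted p was under 0.05. The members of the mir-251 and mir-228 families reach 3.57 and 2.49, whereas the listed members of the mir-64, mir-51 and mir-58 families lie between -0.23 and 0.46. The list of the mir-58 family does not hold miR-58c.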

How the data were processed

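Small RNA of whole L4 larvae was ligated to adaptors, size-selected for inserts of 18 to 40 nt and read from 1 end over 50 nt, per the labels' protocols. The authors deposited raw read counts, 1 whole number per arm and library, without normalization. Bowtie, DESeq2 and the build WBcel235 are named in the submitters' processing notes, without versions. The counting program, its mismatch limit and its handling of multi-mapping reads are not given in the sources here, so arms with near-identical copies are uncertain. The TPM columns beside the counts and the authors' tables against wild type were not used here, and 0 library columns were left unmapped.

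Features passing edgeR's filterByExpr (minimum count 10, minimum total 15) were tested, 250 in all, and the others held 0.0049% of all counts. All 12 libraries entered 1 edgeR quasi-likelihood fit (edgeR 4.0.16, R 4.3.3, TMM, robust, 1 mean per genotype, no block), with Benjamini-Hochberg adjustment over the 250 features and a threshold of 0.05. The SE is the log2 fold change divided by the square root of F, and the biological coefficient of variation was 22.7%. Arm ratios (minor arm: the lower mean count over the 12 libraries, prior count 0.5) were tested with limma 3.58.1 over 80 precursors. DESeq2 1.42.0 was an alternative. Floors cover counting error only, because PCR copies cannot be recognized without molecular identifiers, while SEs and intervals of fold changes come from the fit and include the spread between libraries. Loci are from the Ensembl 115 annotation of WBcel235, in which 368 of the 370 members matched a gene.

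All called miRNAs were eligible to be named, with fixed timing, muscle, neuron and lifespan miRNAs, the 5 most abundant, up to 4 per list, the second arms of called precursors and 3 features on each side of the threshold. Eligible miRNAs that added nothing were left out. Others (miR-78, miR-58c, let-7-3p, mir-246 and neighbours of called genes) were named after their values were seen. The members, lists and naming rule were chosen with earlier results of these data known.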

Additional observations from a re-analysis of the deposited data

How the results depend on the processing

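By edgeR 24 features were called, 14 higher and 10 lower in tm1563. With library totals there were 15 calls and by DESeq2 41, with 4 and 20 lower, and DESeq2 called all 24 again. Lower calls numbered 22 with a minimum count of 100 and 17 with only the libraries of these 2 lines. The share of higher calls was 58.3%, against 73.3% with library totals and 31.2% with the stricter filter, where the median over all tested features (log2) moved from -0.04 to -0.14. With 1 library left out the calls ranged from 13 to 35, the higher from 7 to 12 and the lower from 3 to 28, the last without ME library 2, where the median was -0.22. In settings chosen after seeing the data, there were 16 lower calls without wild-type library 1 and 6 without that library and ME library 1. Arm ratio calls, 0 by limma, numbered 4 with a prior count of 5, 9 with a minimum count of 100, 10 with only these 2 lines, and 0 to 3 with 1 library left out. The median arm ratio difference, -0.32, ranged from -0.38 to -0.28. The library numbers did not pair the samples (correlations of deviations 0.04, -0.06 and -0.15), and with the replicate block 25 features were called, 22 of the 24 among them, without miR-80-5p (adjusted p = 0.0677) and miR-90-3p (adjusted p = 0.0581). No value that was called changed sign under any alternative run. Of the single-miRNA values under the alternatives, 1143 kept their direction and side of the threshold, 72 lost the call, 30 gained it, and 46 changed sign without a call. Calls of scarce arms such as miR-42-5p and miR-791-3p rest on few counts, and depth limits them.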

Other observations

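Some of the larger differences did not pass the test. The minor arm miR-788-5p held 224, 200 and 160 CPM in tm1563 and 1114, 315 and 359 CPM in the ME line, which is -1.61 on the log2 scale (SE 0.50) with an edgeR adjusted p of 0.0609. The let-7 minor arm, let-7-3p, held 67.8, 74.8 and 44.8 CPM against 231, 91.7 and 144 CPM (-1.32, SE 0.50, adjusted p = 0.114). In both arms the lines did not overlap, as for 34% of all features tested, and ME library 1 was the highest of the 6. For miR-78 the levels were 4.88, 2.00 and 5.60 CPM against 1.12, 0.866 and 1.95 CPM (1.69, SE 0.60, adjusted p = 0.0771). These 3 were chosen after their values were seen.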
